A study of Mus musculus with 6 samples.

Results

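Insulin signalling and glucose uptake in white fat were described here by 9 transcripts, which run from the insulin receptor to the glucose transporter GLUT4. They are Insr, Irs1, Irs2, Pik3r1, Pik3ca, Akt2, Tbc1d4, Slc2a4 and Foxo1, chosen by gene symbol among the 21456 genes of the table. All 9 were found. They were also all among the 16157 tested genes, for which a mean of 10 or more normalized counts was required. RNA-seq was performed on WATs (white adipose tissues) of 3 control mice, which carry Ntsr2 flox/flox, and of 3 Ntsr2 AKO mice, which carry Adipoq-cre and Ntsr2 flox/flox. Both groups therefore carry the floxed alleles and ate a chow diet, and only the Ntsr2 AKO mice carry the Cre. Cre under the Adipoq promoter acts in adipocytes, so other cells of the tissue keep the gene. The age of these mice and the fat depot are not given in the sources used here for this experiment. The libraries are called control 3, 4 and 5 and Ntsr2 AKO 3, 4 and 5, after the numbers in their labels.

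Insulin binds its receptor on the adipocyte, and the receptor phosphorylates the adaptors IRS1 and IRS2. These recruit PI3-kinase, whose product PIP3 brings AKT2 to the membrane. AKT2 inhibits TBC1D4 (also called AS160), a brake on the vesicles that carry GLUT4, so that GLUT4 reaches the surface and glucose enters the cell. AKT also keeps FOXO1 out of the nucleus. Much of this control acts on proteins by phosphorylation and transport, which transcript levels do not measure.

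A normalized count is the number of reads of a gene divided by a size factor of the mouse, as deposited by the authors. The targeted gene, Ntsr2, had normalized counts of 83.8, 64.0 and 152.5 in control mice and 3.10, 8.29 and 0 in Ntsr2 AKO mice, so its groups did not overlap (log2 fold change -4.81, SE 0.91, limma adjusted p = 0.499). DESeq2 on the recovered reads gave it an adjusted p of 1.21e-04. The recovered totals were between 60405373 and 66098226 reads in control mice and between 54085088 and 56268725 in Ntsr2 AKO mice. All 10 adipocyte markers were detected, with summed normalized counts of 2759720.0 to 4005430.0 in control and 3255060.0 to 3547520.0 in Ntsr2 AKO mice. Skeletal muscle transcripts set libraries apart. The sum of 12 such genes was 998, 423 and 2860280.0 in control 3, 4 and 5, and 1511, 90523 and 196922 in Ntsr2 AKO 3, 4 and 5. Control 5 was therefore far above the rest, Ntsr2 AKO 4 and 5 lay between, and the other 3 libraries held little. Muscle also expresses insulin signalling genes and GLUT4, so values without these libraries are given beside the members and some of the other genes. Leaving out control 5 and Ntsr2 AKO 4 and 5 keeps Ntsr2 AKO 3 as the only knockout. In those values the part of muscle RNA cannot be told apart from the level of that mouse.

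None of the 9 transcripts passed the adjusted threshold of 0.05 between genotypes in limma, where 0.00619% of all genes tested did so (1 gene, Egr1). edgeR and DESeq2, run on the recovered reads, also called 0 of the 9, while over all genes they called 0% and 1.38%. Tbc1d4 alone had an unadjusted p under 0.05, and it was lower in Ntsr2 AKO mice. At that unadjusted level, 5.27% of all genes tested lay lower and 3.08% lay higher. Of the 9 log2 fold changes 4 were below and 5 above 0, with a median of 0.05 against -0.01 for all genes. Since this is whole tissue, fewer cells of a type and less RNA per cell cannot be told apart.

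**Figure D1:**
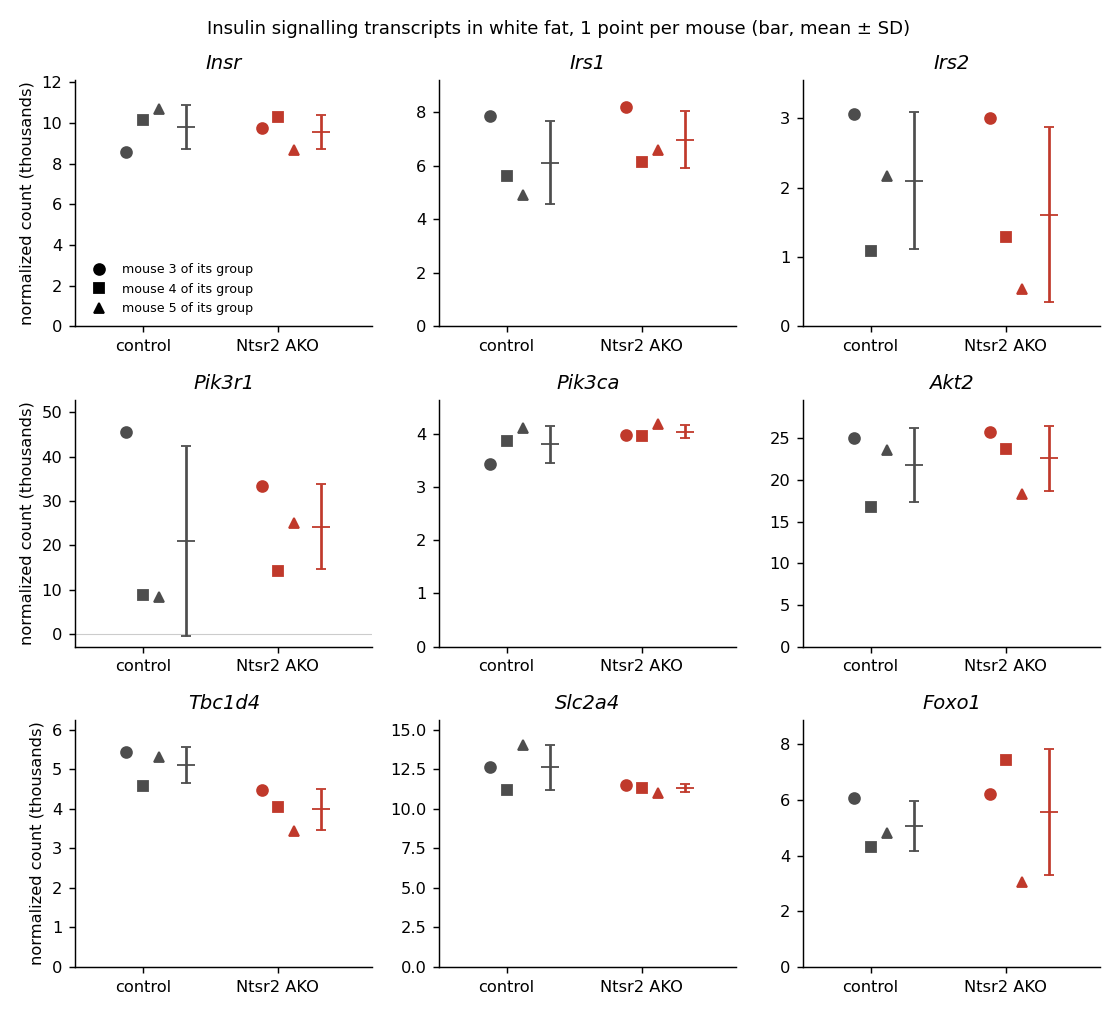
Normalized counts, on axes in units of 1000, of the 9 transcripts in control (grey) and Ntsr2 AKO mice (red). Circles, squares and triangles are mice 3, 4 and 5 of each group, and the bars give the mean ± SD of 3 mice. Tbc1d4 is the gene whose groups do not overlap, and Pik3r1, Irs2 and Foxo1 show the widest spread between mice.

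The levels of the 9 transcripts were first set in order per length, as normalized count per kb of annotated exon, over all 6 mice. Akt2 was highest with a mean of 4592, followed by Slc2a4 with 4265, Pik3r1 with 2984 and Insr with 1035. Lower levels were found for Irs1 with 715, Tbc1d4 with 681, Foxo1 with 613, Pik3ca with 432 and Irs2 with 293. Akt2 stood at percentile 94.9 and Irs2 at percentile 53.0 of the 15145 tested genes with a length. Most neighbours in this order overlapped over the mice. Akt2 exceeded Slc2a4 in 3 of 6 mice, and Pik3ca exceeded Irs2 in 4 of 6. Insr and Irs1 were the neighbours whose ranges did not overlap, with Insr above in 6 of 6 mice. The exon length assumes that all annotated exons are used, which was not measured here. Of the 9144 exon bases of Irs1, 2822 are shared with another annotated gene, Gm9747. Whether reads there were counted for Irs1 is not known, so its place in this order and its distance to Insr may depend on it.

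**Figure D2:**
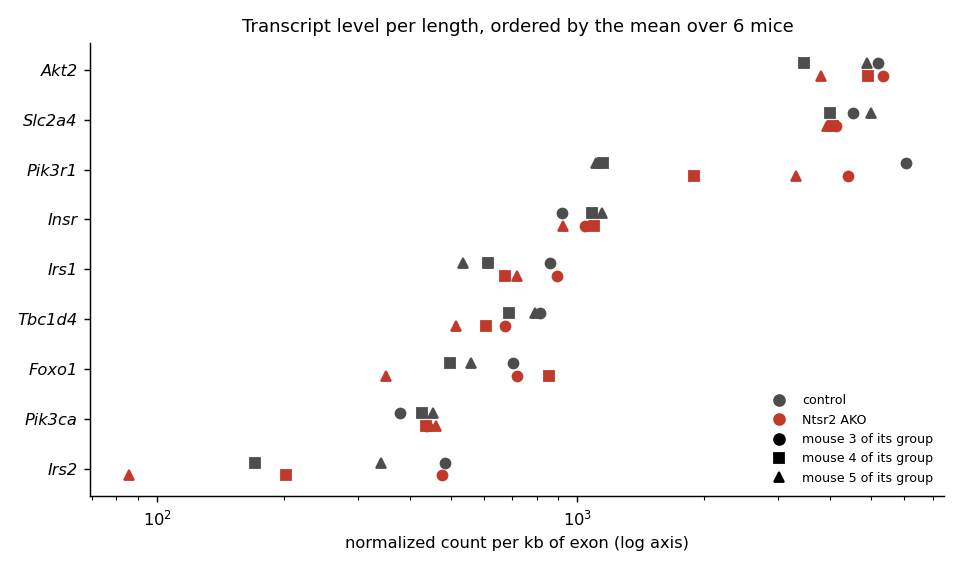
Normalized count per kb of exon on a log axis, with 1 point for each mouse and genes ordered by the mean over 6 mice. Akt2 and Slc2a4 sit near the top in every mouse, Irs2 spans 85.8 to 484 and Pik3r1 spans 1106 to 6037.

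The receptor, Insr (chromosome 8, 3122061 to 3279617 on the minus strand, GRCm38), was even among the mice. Its normalized counts were 8589, 10145 and 10701 in control mice and 9735, 10269 and 8651 in Ntsr2 AKO mice. The groups overlapped across nearly their whole range, with means of 9812 ± 1095 and 9551 ± 824 (SD, n = 3 each, as for all means given here). The log2 fold change of Ntsr2 AKO against control was -0.04 (95% interval -0.35 to 0.28, limma adjusted p = 0.956), and it was 0.06 after quantile normalization, and 0.06 without the 3 libraries that hold muscle transcripts, so the sign rests on such choices.

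The adaptors IRS1 and IRS2 differed in how much they varied. Irs1 had normalized counts of 7850.5, 5593 and 4889 in control mice and 8182, 6144 and 6577 in Ntsr2 AKO mice. Mouse 3 was highest in each group, and the groups overlapped (log2 fold change 0.21, 95% interval -0.28 to 0.70, limma adjusted p = 0.794). The value was 0.06 without control 5, 0.09 without Ntsr2 AKO 3, 0.40 without control 3 and 0.30 without the 3 libraries that hold muscle transcripts. Irs2 had 3060.1, 1079 and 2161 in control mice and 3008, 1282 and 542 in Ntsr2 AKO mice. Its highest value was thus 2.84 times the lowest in controls and 5.54 times in Ntsr2 AKO mice. The log2 fold change of Irs2 was -0.59 with an interval of -2.14 to 0.96 (limma adjusted p = 0.814). It was 0.03 without Ntsr2 AKO 5, -1.21 without Ntsr2 AKO 3 and 0.73 without the 3 libraries that hold muscle transcripts, so individual mice set its size and sign.

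Irs1 (chromosome 1, 82233101 to 82291416) and Irs2 (chromosome 8, 10984681 to 11008458) both lie on the minus strand and are annotated beside other genes. Of the exon bases of Irs1, 2822 are shared with the annotated gene Gm9747, and of those of Irs2, 162 are shared with 9530052E02Rik, whose normalized counts were 0 to 65.3. The library kit as named does not mark strand, so reads in the shared bases cannot be assigned to either gene. The upstream sequences of the pair are printed because these are the adaptors of one step with unlike spread between mice. Each gives the 250 bases before the RefSeq start of the gene (GRCm38.p6, minus strand, written 5′ to 3′), with the motifs CACGTG (E-box) and GGGCGG (GC box) in capitals.
Irs1, chr1:82291440-82291689: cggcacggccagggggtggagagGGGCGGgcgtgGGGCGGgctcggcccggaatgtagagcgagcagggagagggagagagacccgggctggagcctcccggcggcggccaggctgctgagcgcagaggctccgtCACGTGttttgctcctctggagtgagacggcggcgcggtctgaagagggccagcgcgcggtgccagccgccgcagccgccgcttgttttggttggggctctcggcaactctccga
Irs2, chr8:11008930-11009179: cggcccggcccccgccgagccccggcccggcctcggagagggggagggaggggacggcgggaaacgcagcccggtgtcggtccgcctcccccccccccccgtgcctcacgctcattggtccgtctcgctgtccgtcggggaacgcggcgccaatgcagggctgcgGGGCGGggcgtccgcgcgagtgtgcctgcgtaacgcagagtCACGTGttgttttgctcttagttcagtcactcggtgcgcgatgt
Both windows hold 1 E-box, which starts at -115 from the start in Irs1 and at -44 in Irs2. Both strands were searched, and 6.02% of 32851 RefSeq promoter windows of this length hold an E-box. The E-box lies in the stretch GTCACGTGTT, one of a pair of 10-base stretches that are the longest the windows share. That stretch occurs in 23 of all windows, or 0.07%, and the other, TGTTTTGCTC, overlaps it in both genes and occurs in 0.0639%. These matches are descriptions of letters and not sites of binding.

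PI3-kinase was read through its regulatory subunit p85alpha, encoded by Pik3r1, and its catalytic subunit p110alpha, encoded by Pik3ca. Pik3r1 (chromosome 13, 101680563 to 101768217, minus strand) had the largest within-group SD of the 9, with Irs2 next. It had normalized counts of 45647, 8722 and 8364 in control mice and 33274, 14291 and 25068 in Ntsr2 AKO mice. Control 3 held the highest value and the other controls the lowest, so all Ntsr2 AKO mice lay between the extremes of the controls. The within-group SD of log2(normalized count + 1) was 1.08 for Pik3r1, at percentile 98.0 of the 7539 genes with a mean of at least 1000, whose median SD was 0.20. The log2 fold change was 0.61 with an interval of -1.01 to 2.24 (limma adjusted p = 0.816), 0.22 in edgeR, and 0.20 without control 5, 0.74 without the 3 libraries that hold muscle transcripts, and 1.42 without control 3 (unadjusted p = 0.00777, limma adjusted p = 0.571).

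Pik3ca (chromosome 3, 32397671 to 32468486, plus strand) was the most even of the 9. It had normalized counts of 3430.1, 3868 and 4115 in control mice and 3979, 3963 and 4176 in Ntsr2 AKO mice. The groups overlapped, and control 3, the mouse with the most Pik3r1, had the least Pik3ca. The log2 fold change of Pik3ca was 0.09 (95% interval -0.18 to 0.36, limma adjusted p = 0.836), or 0.13 without the 3 libraries that hold muscle transcripts. Its within-group SD of 0.10 stood at percentile 11.9.

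Akt2 (chromosome 7, 27591552 to 27640826, plus strand) encodes the AKT kinase that carries the insulin signal to GLUT4. Its normalized counts were 25047, 16707 and 23547 in control mice and 25715, 23717 and 18289 in Ntsr2 AKO mice. Control 4 and Ntsr2 AKO 5 were the low mice, and the groups overlapped. The means were 21767 ± 4446 and 22574 ± 3843, with a log2 fold change of 0.06 (95% interval -0.44 to 0.56, limma adjusted p = 0.953). The value was -0.12 without control 4, -0.04 without Ntsr2 AKO 3 and 0.33 without the 3 libraries that hold muscle transcripts.

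Tbc1d4 (chromosome 14, 101442360 to 101609191, minus strand) encodes the Rab GTPase-activating protein that AKT2 inhibits. Its normalized counts were 5437, 4579 and 5293 in control mice and 4482, 4037 and 3439 in Ntsr2 AKO mice. The 3 Ntsr2 AKO values all lay below the 3 control values, though control 4 and Ntsr2 AKO 3 differed little. Of all genes tested, 8.16% showed such a gap in this direction and 6.82% in the other, so 1 such gene among 9 is close to the background. The means were 5103 ± 459.9 and 3986 ± 523, with a log2 fold change of -0.36 (SE 0.14, 95% interval -0.69 to -0.03). The unadjusted p was 0.0371 and the limma adjusted p was 0.575. The unadjusted limma p was 0.0900 after quantile normalization and 0.0660 without the variance trend. It was 0.103 without control 3, 0.0926 without control 5, 0.0785 without Ntsr2 AKO 4 and 0.113 without Ntsr2 AKO 5. The unadjusted p stayed under 0.05 with the other pseudocounts and minimum means, the replicate block, edgeR and DESeq2, and without control 4 or Ntsr2 AKO 3. The adjusted p was between 0.396 and 0.974 under the alternatives that keep more than 1 knockout. Tbc1d4 was highest in control 3, a library with little muscle RNA, and the log2 fold change was -0.33 without control 5, the library with the most. The log2 fold change was -0.37 without Ntsr2 AKO 4 and -0.26 without Ntsr2 AKO 5. Without all 3 libraries that hold muscle transcripts it was -0.15, with Ntsr2 AKO 3, the highest of the knockouts, as the only knockout left. How far muscle RNA enters this difference was not tested.

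The 250 bases before the RefSeq start of Tbc1d4 (GRCm38.p6, minus strand, 5′ to 3′) are printed because this was the gene with separated groups. The motif GGGCGG is in capitals.
Tbc1d4, chr14:101609192-101609441: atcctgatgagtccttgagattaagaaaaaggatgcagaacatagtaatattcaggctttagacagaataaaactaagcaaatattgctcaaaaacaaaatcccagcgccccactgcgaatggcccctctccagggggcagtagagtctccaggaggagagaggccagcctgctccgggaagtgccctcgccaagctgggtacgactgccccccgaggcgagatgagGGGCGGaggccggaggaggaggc
The window holds 1 GC box, at -23, and no E-box. The GC box occurs in 32.7% of all windows on either strand and in 7 of the 11 windows of the members that the promoter table holds. Some members have more than 1 window, and each of the 7 members holds the motif in at least 1. These are Akt2, Foxo1, Irs1, Irs2, Pik3ca, Pik3r1 and Tbc1d4. Insr and Slc2a4 are not in that table. The FOXO motif TGTTTAC was found in 0 of the 11 windows of these members and in 3.17% of all windows.

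Slc2a4 (chromosome 11, 69942539 to 69948188, minus strand) encodes GLUT4, the insulin-responsive glucose transporter of fat and muscle. Its normalized counts were 12683, 11185 and 14022 in control mice and 11544, 11353 and 11026 in Ntsr2 AKO mice. The Ntsr2 AKO mice lay close together and overlapped the controls through control 4. The means were 12630.1 ± 1419 and 11308 ± 262, with a log2 fold change of -0.15 (95% interval -0.44 to 0.14, limma adjusted p = 0.751). The highest value was in control 5, the library with the most muscle RNA, and without it the log2 fold change was -0.08, or -0.05 without all 3 libraries that hold such RNA. The part of muscle RNA in this difference was not tested.

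The genes whose profile over the 6 mice was most like that of Slc2a4 were sought among 12565 other genes, each with 100 or more normalized counts on average. The 5 nearest were Bcor, a transcriptional corepressor (Pearson r = 0.993), Carns1, which makes carnosine (0.991), the kinase Nek9 (0.991), the ER-phagy receptor Ccpg1 (0.990) and Ern1, the ER stress sensor IRE1 (0.990). All 5 were highest in control 5 and next highest in control 3, as Slc2a4 was. With 6 libraries, 354 of the 12565 genes had r over 0.9, so a high r was not particular to these 5. The 5 are by choice the highest of that ranking. How high the top values run by chance with 6 libraries was not tested.

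Foxo1 (chromosome 3, 52268336 to 52353221, plus strand) encodes the transcription factor that insulin keeps out of the nucleus. Its normalized counts were 6075, 4321 and 4824 in control mice and 6216, 7423 and 3036 in Ntsr2 AKO mice. The Ntsr2 AKO mice held both the highest and the lowest value. The log2 fold change was 0.05 (95% interval -0.75 to 0.84, limma adjusted p = 0.976), 0.44 without Ntsr2 AKO 5, -0.21 without Ntsr2 AKO 4 and 0.28 without the 3 libraries that hold muscle transcripts. Of its exon bases, 674 are shared with the annotated gene Gm20402.

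**Figure D3:**
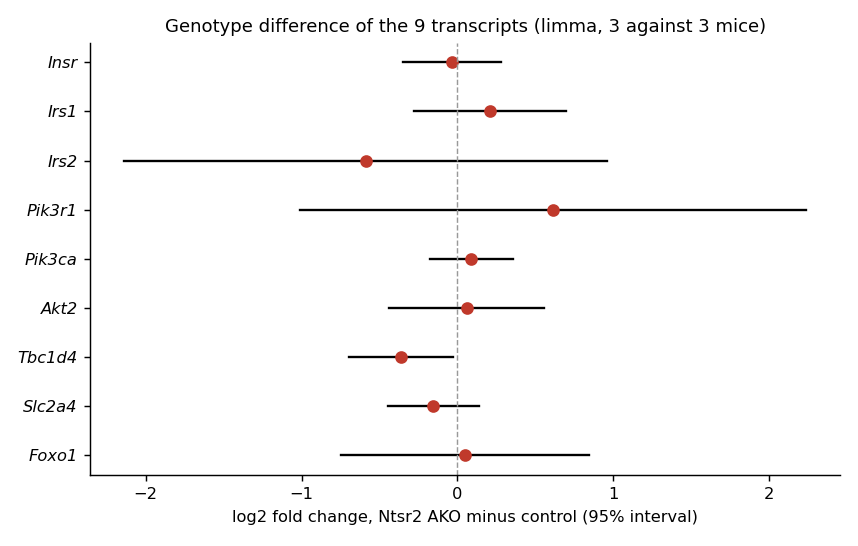
Log2 fold change of Ntsr2 AKO against control mice (points) with 95% intervals from limma (lines) for the 9 transcripts, 3 mice in each group. The interval of Tbc1d4, -0.69 to -0.03, leaves out 0 before adjustment, and those of Irs2 and Pik3r1 are the widest.

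Related transcripts were then compared within each mouse, where the size factor cancels. The question was whether the first transcript of each pair shifted against the second, called its relative. Slc2a4 was set against Slc2a1, which encodes GLUT1, the transporter of basal uptake. Per kb, Slc2a4 was 16.0, 13.3 and 16.1 times Slc2a1 in control mice and 20.9, 22.8 and 17.4 times in Ntsr2 AKO mice. The ratio was higher in every Ntsr2 AKO mouse (difference of mean log2 ratios 0.43, two-sided exact permutation test, p = 0.1, adjusted p = 0.3 over 6 ratios). The smallest p that 3 mice against 3 allow is 0.1, so this design cannot reach 0.05.

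Akt2 was set against Akt1, the AKT form tied more to growth. Per kb, Akt2 was 2.52, 1.66 and 2.34 times Akt1 in control mice and 2.96, 3.74 and 2.79 times in Ntsr2 AKO mice. This ratio too was higher in every Ntsr2 AKO mouse (difference of mean log2 ratios 0.55, two-sided exact permutation test, p = 0.1, adjusted p = 0.3). With all mice included, the log2 fold change between genotypes was larger in size for the relative in both pairs. Slc2a1 had normalized counts of 920.3, 977 and 1012 in control mice and 643, 577 and 736 in the knockouts (log2 fold change -0.58, limma unadjusted p = 0.00587, adjusted p = 0.522). Akt1 had 5532, 5622 and 5606 in control mice and 4838, 3530.4 and 3650.5 in the knockouts (log2 fold change -0.49, limma unadjusted p = 0.0117, adjusted p = 0.523). Without the 3 libraries that hold muscle transcripts, the log2 fold changes were -0.56 for Slc2a1, -0.20 for Akt1 and 0.33 for Akt2.

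The other 4 ratios overlapped between genotypes. The differences of mean log2 ratios were -0.80 for Irs2 to Irs1 (two-sided exact permutation test, p = 0.4), 0.52 for Pik3r1 to Pik3ca, 0.11 for Tbc1d4 to Tbc1d1 and 0.34 for Foxo1 to Foxo3 (exact p = 0.6 for each). All 4 had an adjusted p of 0.6. When each mouse was left out in turn, these differences ranged from -1.29 to -0.22, from 0.0464 to 1.40, from -0.00508 to 0.29 and from 0.0855 to 0.72. The ratio of Irs2 to Irs1 spanned 0.279 to 0.639 in control mice and 0.119 to 0.532 in Ntsr2 AKO mice, so Irs1 exceeded Irs2 per kb in every mouse. The length of Irs1 includes the exon bases shared with Gm9747. Irs3, an adaptor gene of the wider lists, had a mean of 629 per kb. In Ntsr2 AKO 4 it had 1155 against 672 for Irs1, and in the other mice it was below Irs1. Per kb, Pik3r1 exceeded Pik3ca in every mouse, by 2.44 to 16.0 times in controls and 4.33 to 10.03 times in Ntsr2 AKO mice. Tbc1d1, the relative of Tbc1d4 that prevails in some muscles, was below Tbc1d4 throughout, and Tbc1d4 was 3.98 to 5.99 times as high. Foxo1 was 1.19 to 2.88 times Foxo3.

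**Figure D4:**
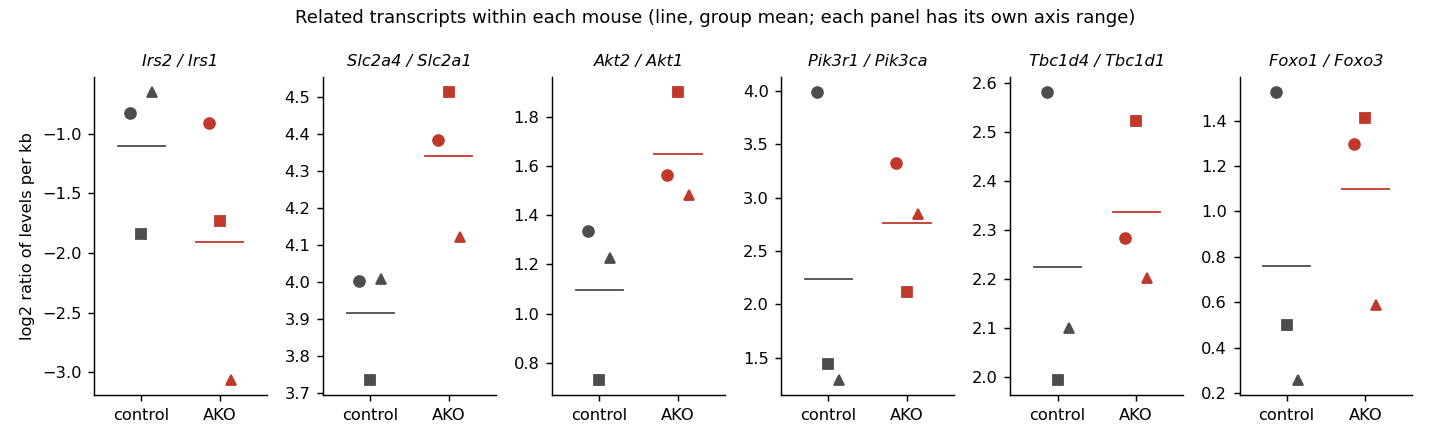
Log2 ratio of levels per kb of 6 pairs of related transcripts in control (grey) and Ntsr2 AKO mice (red). Circles, squares and triangles are mice 3, 4 and 5 and lines are group means. The groups do not overlap for Slc2a4 to Slc2a1 and for Akt2 to Akt1.

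The wider pathway was described with 125 other genes in 8 lists by role, of which 123 were in the table and 121 were tested. In limma 0 of the 121 passed the adjusted threshold. At an unadjusted p under 0.05, 11 (9.09%) lay lower and 2 (1.65%) lay higher with the knockout, beside 5.27% and 3.08% of all genes. Those shares of all genes are also the background for the counts given below for each list. The groups were separated with the Ntsr2 AKO mice below in 15 genes (12.4%) and above in 5 (4.13%), beside 8.16% and 6.82% of all genes. The log2 fold change was below 0 in 80 of the 121, with a median of -0.12 against -0.01 for all genes. After quantile normalization 68 were below 0, with a median of -0.04 against 0.05 for all genes. When each mouse was left out in turn, between 71 (without control 5 or without Ntsr2 AKO 5) and 83 (without Ntsr2 AKO 3) were below 0, with 73 without control 3 and 80 without Ntsr2 AKO 4. Without the 3 libraries that hold muscle transcripts, 59 were below 0, with a median of 0.02 against -0.00485 for all genes. That fit leaves Ntsr2 AKO 3 as the only knockout.

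Among the other receptors and adaptors, 13 genes were tested, 2 were lower and 0 higher at the unadjusted level, and the median log2 fold change was -0.18, or 0.03 without the 3 libraries that hold muscle transcripts. Igf1r, the receptor of insulin-like growth factor, had 319, 185 and 255 in control mice and 172, 165 and 121 in the knockouts (log2 fold change -0.70, limma unadjusted p = 0.0436, adjusted p = 0.590). The log2 fold change of Igf1r was -0.68 without control 5 and -0.49 without the 3 libraries that hold muscle transcripts. Per kb Igf1r was far below Insr, with a mean level of 17.8 against 1035. Grb2, which links receptors to RAS, had 4467 ± 529.9 and 3612 ± 53.8 (log2 fold change -0.30, or -0.21 without control 5, limma adjusted p = 0.590). Neither gene overlapped between groups. Cav1, the caveolin of adipocyte membranes, had the highest counts of the list and overlapped (136777 ± 27181 and 117632 ± 17660.4, log2 fold change -0.21).

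Of 15 brakes on the receptor and on PIP3, 1 (6.67%) was lower and 0 higher, beside 5.27% and 3.08% of all genes. The median was -0.15, or -0.03 without those 3 libraries. Socs3, an inhibitor of cytokine and insulin receptor signalling, had 4009, 1190 and 2698 in control mice and 853, 189 and 511 in Ntsr2 AKO mice. The groups did not overlap (log2 fold change -2.43, SE 0.64, limma unadjusted p = 0.00703, adjusted p = 0.522), and DESeq2 gave an adjusted p of 0.00674. The log2 fold change of Socs3 was -2.33 without control 5 and -1.36 without the 3 libraries that hold muscle transcripts.

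Of 15 genes of the PI3K and AKT kinase module, 2 were lower and 1 higher, with a median of -0.04. Akt1, described above, also had the highest mean count of this list. Prkci, an atypical protein kinase C, was above in every Ntsr2 AKO mouse, with 3848, 3501 and 3532 against 4605, 4807 and 4414 (log2 fold change 0.35, limma unadjusted p = 0.0127, adjusted p = 0.523).

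Of 12 targets of AKT outside GLUT4 traffic, 0 had an unadjusted p under 0.05, and the median was -0.06, or 0.04 after quantile normalization. Pde3b, the phosphodiesterase through which insulin restrains lipolysis, had 35238 ± 7147 and 39677 ± 5896 (log2 fold change 0.18, limma adjusted p = 0.813). Of 21 genes of GLUT4 vesicle traffic, 2 were lower and 0 higher. The median was -0.14, or -0.05 without the 3 libraries that hold muscle transcripts. Lnpep, the aminopeptidase IRAP that travels with GLUT4, had 1885, 2018 and 3128 in control mice and 1693, 1492 and 1352 in the knockouts (log2 fold change -0.60, limma unadjusted p = 0.0274, adjusted p = 0.565). Its highest value was in control 5, the library with the most muscle RNA. The log2 fold change of Lnpep was -0.37 without control 5 and -0.20 without the 3 libraries that hold muscle transcripts. Tbc1d1 had 898, 1138 and 1222 against 910.4, 695 and 739.8, and overlapped (log2 fold change -0.47, limma unadjusted p = 0.0348, adjusted p = 0.567). The log2 fold change of Tbc1d1 was -0.38 without control 5 and -0.15 without those 3 libraries. Sort1, or sortilin, which helps to form the GLUT4 vesicle and also binds neurotensin, had the highest counts of this list (25581 ± 4511 and 24226 ± 3930.4, log2 fold change -0.08, limma adjusted p = 0.926).

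Of 17 tested glucose transporters and enzymes of the first steps, Slc2a1 was the 1 gene with an unadjusted p under 0.05, and the median was -0.14, or 0.08 without control 5. Gpi1, glucose-6-phosphate isomerase, had 12596, 14312 and 23396 in control mice and 13763, 13692 and 13990 in the knockouts (log2 fold change -0.23, limma adjusted p = 0.8003). Its high value was again in control 5, without which the log2 fold change was 0.04.

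Of 18 tested FOXO factors and genes known as FOXO targets, 3 were lower and 1 higher, with a median of -0.20, or -0.02 without those 3 libraries. Trib1, a pseudokinase, had 4134, 2658 and 2744 in control mice and 1327, 1392 and 1530.2 in Ntsr2 AKO mice. This was the smallest unadjusted p of all 8 lists (log2 fold change -1.14, SE 0.19, limma unadjusted p = 6.34e-04, adjusted p = 0.499), and DESeq2 gave an adjusted p of 1.55e-04. Gadd45a, a growth arrest gene, had 885, 854 and 2109 against 378, 540.0 and 594 (log2 fold change -1.24, or -0.81 without control 5, limma adjusted p = 0.523). Cdkn1b, the cell cycle inhibitor p27, was above in every Ntsr2 AKO mouse, with 2972 ± 247 against 3870 ± 132 (log2 fold change 0.38, limma adjusted p = 0.522). Foxo6 had few counts in this tissue, with 9.20, 45.4 and 150.6 against 6.19, 0 and 4.05 and its highest value in control 5. Its unadjusted limma p was 0.0222 (adjusted p = 0.557), or 0.0849 without control 5, and DESeq2 gave an adjusted p of 0.0472. Pck1, which adipocytes use for glyceroneogenesis, had 168111 ± 56337 and 257849 ± 77964 and overlapped (log2 fold change 0.62, limma adjusted p = 0.664).

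A list of 9 immediate early genes was lower in Ntsr2 AKO mice by its sum, as were Socs3, Trib1 and Gadd45a by their counts. The summed normalized counts were 12066 to 19104 in control and 5291 to 6862 in Ntsr2 AKO mice, and in 7 of the 9 genes the 3 Ntsr2 AKO values all lay below the control values, beside 8.16% of all genes, while 1 of the 9 passed the adjusted threshold in limma. Its part in the values of those 3 genes was not tested.

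Of 10 lipogenic genes that insulin is known to induce, 0 had an unadjusted p under 0.05, and the median was 0.18. Scd1, the stearoyl-CoA desaturase, had 1202310.0 ± 241918 in control and 1305150.0 ± 224822 in the knockouts (log2 fold change 0.12, limma adjusted p = 0.951).

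**Figure D5:**
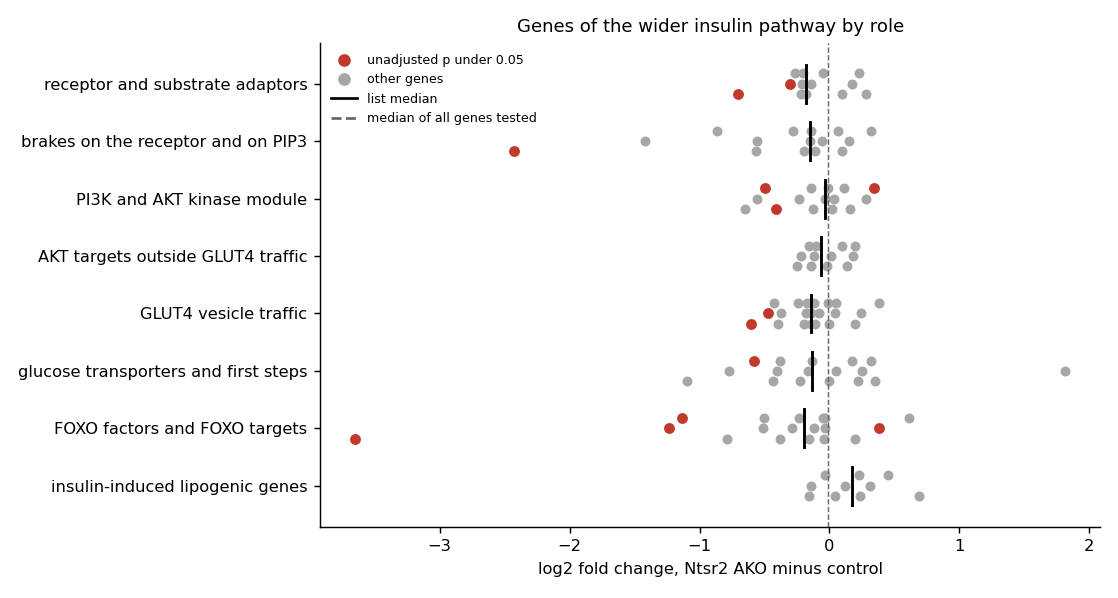
Log2 fold change of Ntsr2 AKO against control mice for the 121 tested genes of 8 lists, with 1 point for each gene, those with an unadjusted p under 0.05 in red, list medians as black bars and the median of all genes as a dashed line. Medians of 7 lists lie below 0 and that of the lipogenic genes above. Of the 7, those of the AKT targets, the glucose transporters and the receptor adaptors lay above 0 under some alternatives (at most 0.09, 0.08 and 0.03), and Foxo6 and Socs3 are the points farthest to the left.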

How the data were processed

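Total RNA from WATs of 3 control and 3 Ntsr2 AKO mice was sequenced from poly-A libraries. The values deposited by the authors are a signal, normalized counts: reads per gene over 1 size factor per mouse. Trimmomatic, Hisat2, StringTie and DESeq2 are named in their methods, and the submitters' processing notes give the build mm10. The annotation is not given in the sources used here.

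All values (100%) came out whole, within 0.05, after division by the smallest value of the column. No 2 columns were identical. Nothing in the labels says how the samples of a group were obtained apart from their numbers, so p-values measure the spread between these samples. At these totals counting error is small for genes with many reads, and larger for Ntsr2 and Foxo6, which had few.

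In R 4.3.3, limma 3.58.1 (mean-variance trend, no covariates) was fitted to log2(normalized count + 1) of the 16157 genes with a mean of at least 10 (Benjamini-Hochberg adjustment, threshold 0.05). Low genes change less on this scale than in fold. As alternatives, recovered reads were tested with edgeR 4.0.16 (quasi-likelihood, TMM) and DESeq2 1.42.0. The procedures were tested on simulated data. Ratios were compared by exact permutation tests. Further alternatives were quantile normalization, pseudocounts of 0.1 and 5, a minimum mean of 50, no minimum, no variance trend, a replicate block and the omission of each mouse. The omission of the 3 mice with muscle transcripts was chosen after seeing the data.

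The members and lists were chosen with earlier results of these data known. The genes named are the members, Ntsr2, the partners in the ratios, from each list the genes with an unadjusted p under 0.05 and the gene with the highest mean, and the 5 genes most correlated with Slc2a4. Some genes that this rule names are not reported here. Per-kb levels and positions use GENCODE M21 (GRCm38, the mm10 assembly), in which 19770 gene names were found, and promoter sequences are from RefSeq (GRCm38.p6). Of the lists of other cells, sums in control and Ntsr2 AKO mice were 3529 to 7552 and 6543 to 11472 for brown adipocyte, 29178 to 86008 and 32060.3 to 71578 for macrophage, 18629 to 30371 and 19176 to 26292 for endothelial, 141706 to 196736 and 156798 to 294679 for fibroblast and progenitor, 157 to 470.4 and 142 to 177 for mesothelial, and 1395 to 3092 and 1575 to 2160 for lymphocyte genes.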

Additional observations from a re-analysis of the deposited data

How the results depend on the processing

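The number of the 9 members past the adjusted threshold was 0 under each alternative run, and that of the 121 wider pathway genes was 0 under each except DESeq2, which called 3 (Trib1, Socs3 and Foxo6). The sign of the log2 fold change of Irs1, Pik3r1, Pik3ca, Tbc1d4 and Slc2a4 was the same under all 16 alternatives. That of Insr turned to 0.0635 after quantile normalization. Without the 3 mice with skeletal muscle transcripts, where the Ntsr2 AKO mouse left alone is assumed to vary like the controls, Insr was at 0.0605, Irs2 at 0.73, and the difference of the log2 ratio of Irs2 to Irs1 was 0.42. When each mouse was left out in turn, the log2 fold change ranged from -0.13 to 0.0334 for Insr, from -1.21 to 0.0285 for Irs2, from -0.12 to 0.20 for Akt2 and from -0.21 to 0.44 for Foxo1. The cause was not tested. The differences of the log2 ratio of Slc2a4 to Slc2a1 (0.33 to 0.53) and of Akt2 to Akt1 (0.37 to 0.67) stayed above 0 in those omissions, and that of Tbc1d4 to Tbc1d1 spanned 0 (-0.00508 to 0.29).

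The groups share the replicate numbers 3, 4 and 5, but the deviations of same-numbered mice correlated at 0.45, -0.24 and 0.41, so the numbers were not taken to pair the mice. With the replicate block, 0 of the 9 members passed the adjusted threshold, Tbc1d4 had an adjusted p of 0.617, and over all genes 1303 rather than 1349 had an unadjusted p under 0.05, with 0 rather than 1 past the adjusted threshold.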
